A study of Mus musculus with 9 samples.

Results

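Chaperone genes whose products serve folding in unstressed cells were followed in mouse embryonic fibroblasts (MEFs) during hyperosmotic stress. The group was chosen by name and annotated as protein coding: J-proteins (Dnaja, Dnajb and Dnajc symbols, leaving out Dnajb1 and Dnajb9), subunits of the CCT chaperonin (Cct2 to Cct8 symbols), prefoldin subunits (Pfdn1 to Pfdn6 symbols), and Hspd1, Hspe1, Hspa4, Hspa4l, Hspa9, Hspa14 and Hsp90ab1. It held 64 of the 35275 genes in the deposited table. All cells were MEFs from C57Bl/6 mice, cultured in iso-osmolar medium (300 mOsm) or exposed for 3 h to low-intensity stress (500 mOsm, 200 mM added sucrose) or high-intensity stress (600 mOsm, 300 mM added sucrose). Poly-A RNA was sequenced as 3 libraries per treatment. The labels do not say whether these came from separate cultures, so p-values measure the spread between libraries, which may be technical.

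J-proteins carry a J domain that stimulates ATP hydrolysis by Hsp70 and thereby sets where and on which clients Hsp70 acts. Class A and B members are general co-chaperones built like bacterial DnaJ, and class C members share only the J domain and are mostly specialised by compartment. CCT (also called TRiC) is a pair of stacked rings, each made of distinct subunits, that folds actin and tubulin. Prefoldin delivers these clients to it. Hspd1 (Hsp60) and its lid Hspe1 (Hsp10) form the chaperonin of the mitochondrial matrix, where Hspa9 is the Hsp70. Hspa4 and Hspa4l are Hsp110-type nucleotide exchange factors, Hspa14 works at the ribosome with Dnajc2, and Hsp90ab1 is the constitutive cytosolic Hsp90.

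The libraries held 21716042 to 26740832 counts in genes. Genes of the list took 1.33% to 1.502% of each library, and Hsp90ab1 alone took 0.517% to 0.607%. Of the 64 genes, 55 passed the filter on low counts and were tested among 13082 genes. The other 9 were Cct6b, Cct8l1, Dnajb13, Dnajb3, Dnajb7, Dnajb8, Dnajc5b, Dnajc5g and Dnajc6, with at most 34 counts summed over the 9 libraries (Dnajb13) and none for Dnajc5b, where a count of 0 allows up to 0.1365 CPM (a count relative to its library total, scaled by TMM factors and given on the usual CPM scale) in the shallowest library. All 9 fibroblast markers had a mean above 1 FPKM, with a summed level of 5384 to 6296 FPKM per library. Summed epithelial and endothelial markers stayed at or under 1.47 and 3.72 FPKM, with their highest values at 500 mOsm, and 1 of 5 epithelial markers was at 0 in every library. Summed haematopoietic, muscle and pluripotent markers reached at most 1.84, 0.131 and 0.498 FPKM. Their part in the results was not tested.

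Of the constitutive chaperone genes, 30 of 55 did not pass the test in any comparison. The test was edgeR's quasi-likelihood test with Benjamini-Hochberg adjustment over all 13082 genes, called at an adjusted p under 0.05. At 500 mOsm against iso-osmolar medium 4 of 55 genes were higher, beside 13.2% of all genes tested, and 3 were lower, beside 14.8%. At 600 mOsm against iso-osmolar medium 5 were higher, beside 15.1% of all genes, and 9 were lower, beside 20.0%. At 600 mOsm against 500 mOsm 9 were higher, beside 11.9%, and 11 were lower, beside 17.2%. The shares among the chaperone genes were thus 7.27% and 5.45%, then 9.09% and 16.4%, then 16.4% and 20.0%, close to or under those of all genes except for the higher calls between the stress intensities. The split between the intensities changed with the correction used for gene length and GC content. A least-squares correction, which moved the median of all genes from 0.01 to 0.09, gave 18 higher and 7 lower, and a robust one gave 8 higher and 13 lower. The 3 comparisons share libraries and are not independent. No called log2 fold change exceeded 0.97 in size.

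**Figure D1:**
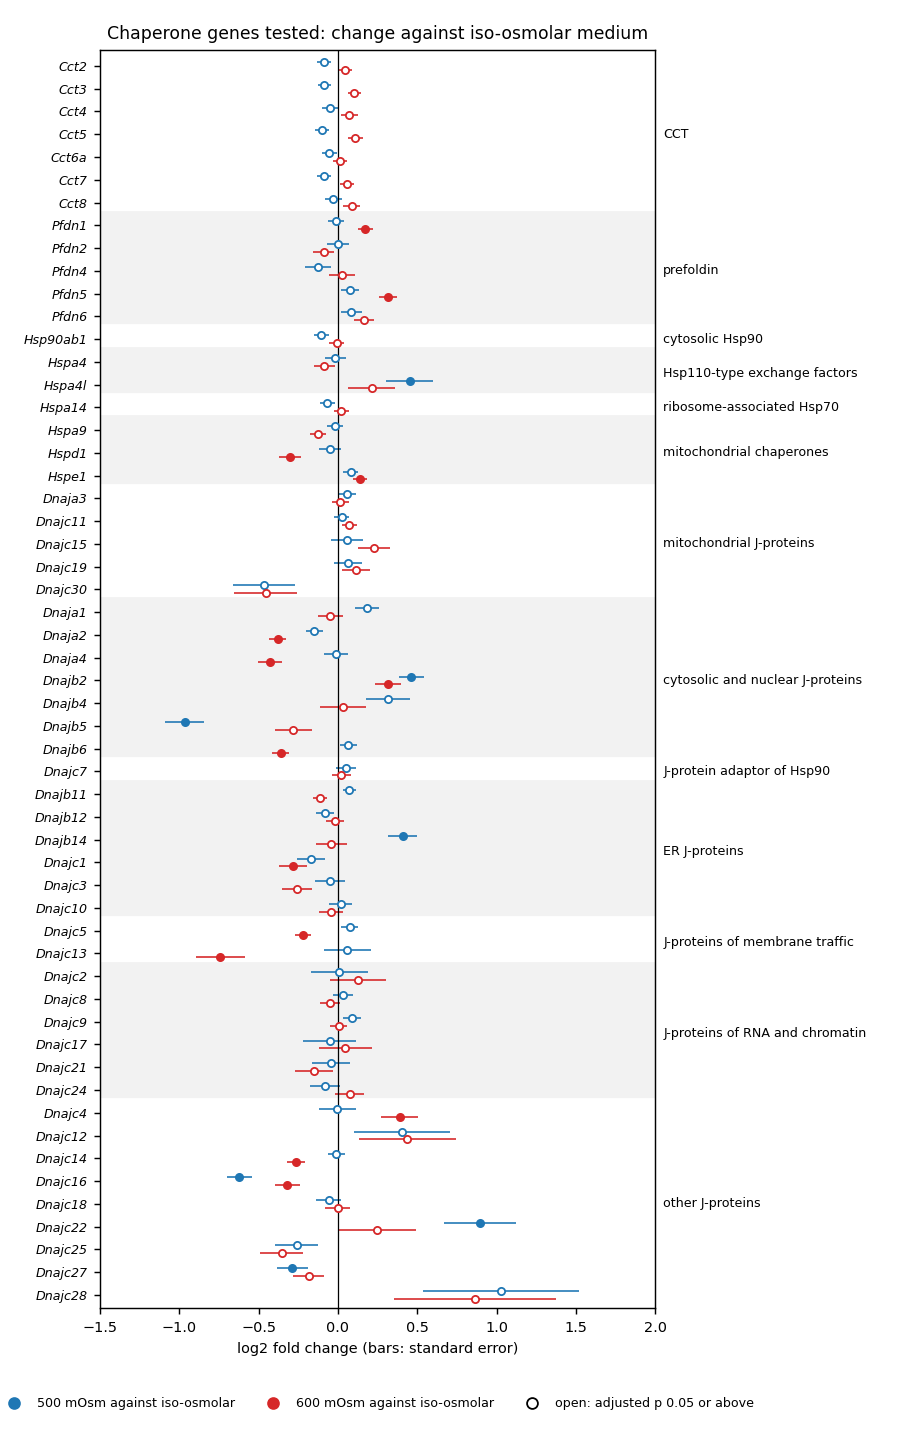
Log2 fold change against iso-osmolar medium (x axis, bars show the standard error) of each of the 55 chaperone genes tested (y axis, grouped by place or complex), with 500 mOsm in blue and 600 mOsm in red. Filled points passed an adjusted p of 0.05. Dnajb5, Dnajc16 and Dnajc13 had the lowest called values, CCT subunits lay close to 0 at both intensities, and the widest bars belong to genes with few counts such as Dnajc28 and Dnajc12.

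Short stretches before the start sites of a few members are shown because they hold the fixed letters of elements bound by stress regulated transcription factors. RefSeq (GRCm38.p6) gave 250 bases before to 50 bases after the start of 52 of the 64 genes. These were searched on both strands for the heat shock element (GAA, TTC and GAA with 2 bases between neighbours), the ER stress element (CCAAT and CCACG, 9 bases apart) and the C/EBP-ATF element (TGATG and AA, 1 base apart). In the lines that follow, capitals mark the fixed letters of a match.
Hspd1-Hspe1 heat shock elements, + strand: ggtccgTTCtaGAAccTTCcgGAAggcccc
Dnajb6 heat shock element, + strand: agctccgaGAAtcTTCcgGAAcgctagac
Dnajc3 ER stress element, + strand: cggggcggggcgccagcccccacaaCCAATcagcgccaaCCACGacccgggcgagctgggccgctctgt
Hspa14 C/EBP-ATF element, − strand: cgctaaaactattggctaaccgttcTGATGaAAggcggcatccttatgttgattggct
The Hspd1-Hspe1 stretch (mm10, chr1:55088053-55088082) lies between the head-to-head starts of both genes, which are 216 bases apart, and holds 2 overlapping matches. The Dnajb6 stretch is at chr5:29735844-29735872, the Dnajc3 stretch at chr14:118937802-118937870 and the Hspa14 stretch at chr2:3512838-3512895. The heat shock element letters stood in 3 of the 52 genes and in 0.662% of 27025 genes with a promoter sequence, the ER stress element in 1 of 52 and in 0.137%, and the C/EBP-ATF element in 1 of 52 and in 4.51%. Of the 3 genes with heat shock element letters, Hspd1 and Hspe1 were both counted for the same shared matches. By GENCODE vM21 the Dnajb6 stretch lies in the first exon of a Dnajb6 transcript, the Hspd1-Hspe1 stretch in an exon of an alternative Hspd1 transcript, and the other stretches in no annotated exon. Each is a match of letters only. Dnajb6 and Hspd1 were lower at 600 mOsm, Dnajc3 and Hspa14 passed the test in no comparison, and Hspe1 was higher at 600 mOsm.

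The CCT subunits were among the most abundant chaperone transcripts and moved little. By length-scaled level, Hsp90ab1 led with 2229 FPKM over all libraries, followed by Cct7 with 414, Cct5 with 409, Hspe1 with 306, Cct2 with 277, Cct3 with 255 and Cct6a with 247. Cct4 and Cct8 stood at 138 FPKM each. Between treatments the order of Cct7 and Cct5 changed, and their levels overlapped within 1 SD in iso-osmolar medium (419 ± 10.3 and 410 ± 12.6 FPKM, SD, n = 3).

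None of the 7 CCT subunits tested passed against iso-osmolar medium at either intensity. Fitted log2 fold changes ranged between -0.10 and -0.03 at 500 mOsm, with a median of -0.09 beside 0.01 for all genes. At 600 mOsm the range was 0.01 to 0.11, with a median of 0.07 beside 0.01. Some settings did give calls here. After the least-squares correction for GC content and length Cct2 (-0.13) and Cct5 (-0.19) were lower at 500 mOsm and Cct3 (0.19), Cct5 (0.11) and Cct8 (0.10) were higher at 600 mOsm. With a block for replicate number added to it, Cct2 and Cct5 stayed lower at 500 mOsm and Cct3 stayed higher at 600 mOsm. Cct3 was also higher at 600 mOsm after the robust correction and, together with Cct5, in a fit of the 2 treatments alone. Without 500 mOsm replicate 3 Cct5 was lower at 500 mOsm (-0.14, adjusted p = 0.0284) and Cct3 and Cct5 were higher at 600 mOsm (0.10 and 0.11, adjusted p = 0.0445 and 0.0406). At 600 mOsm against 500 mOsm, 4 of 7 were higher (Cct2, Cct3, Cct5 and Cct7), which is 57.1% beside 11.9% of all genes. The median was 0.13 beside 0.01 over all genes.

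Cct3 (mm10, chr3:88297116-88321767) had 848, 857 and 837 CPM in iso-osmolar medium, 775, 791 and 828 at 500 mOsm, and 913, 898 and 916 at 600 mOsm. All 3 libraries at 600 mOsm lay above all others, and the 500 mOsm libraries lay below all others. The change between intensities was 0.19 ± 0.04 (log2, SE), adjusted p = 0.00359. Cct5 had 793, 760 and 764 CPM in iso-osmolar medium, 700.4, 699 and 763 at 500 mOsm, and 823, 850.4 and 828 at 600 mOsm. Here too the 600 mOsm libraries were the highest, while the other treatments overlapped, and the change between intensities was 0.21 ± 0.05, adjusted p = 0.00385.

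Cct7 (0.14 ± 0.04, adjusted p = 0.0301) and Cct2 (0.13 ± 0.04, adjusted p = 0.0458) passed less firmly. Of 23 alternative settings, 16 ended the call of Cct2 and 11 that of Cct7. For Cct2 the adjusted p was 0.0575 without iso-osmolar replicate 2, 0.0607 without iso-osmolar replicate 3, 0.121 and 0.136 without 500 mOsm replicates 1 and 2, and 0.0935, 0.103 and 0.0745 without 600 mOsm replicates 1, 2 and 3. For Cct7 it was 0.108 and 0.0572 without 500 mOsm replicates 1 and 2, and 0.121 without 600 mOsm replicate 1. Cct3 and Cct5 lost the call only where a log2 fold change of at least 1 was asked for. Tcp1, the CCT subunit whose symbol lies outside the name rule, had 377, 364 and 376 CPM in iso-osmolar medium, 335, 335 and 366 at 500 mOsm and 379, 396 and 374 at 600 mOsm, and was higher at 600 mOsm than at 500 mOsm by 0.15 ± 0.05 (adjusted p = 0.0321).

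Cct2 had 571, 539 and 538 CPM in iso-osmolar medium, 510.3, 502 and 539 at 500 mOsm, and 562, 575 and 559 at 600 mOsm. Cct7 had 1037, 1039 and 989 CPM in iso-osmolar medium, 925, 970.2 and 989 at 500 mOsm, and 1100, 1053 and 1030 at 600 mOsm. For both genes the 600 mOsm libraries lay above the 500 mOsm ones, and the iso-osmolar libraries overlapped those of both other treatments.

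Cct4, Cct6a and Cct8 did not pass in any comparison. Cct4 had 361, 335 and 325 CPM in iso-osmolar medium, 340.3, 313 and 335 at 500 mOsm, and 364, 371 and 337 at 600 mOsm. Cct6a had 417.5, 399.8 and 378 CPM in iso-osmolar medium, 390.5, 370.2 and 389.9 at 500 mOsm, and 394, 407 and 405 at 600 mOsm. Cct8 had 335, 311 and 329 CPM in iso-osmolar medium, 324, 303 and 329 at 500 mOsm, and 339.9, 363 and 332 at 600 mOsm. The 600 mOsm libraries of Cct6a and Cct8 lay above their 500 mOsm ones, while those of Cct4 overlapped. For 600 mOsm against 500 mOsm their intervals (95%) ran from -0.0012 to 0.24, from -0.03 to 0.17 and from 0.0028 to 0.23 on the log2 scale. All of them were called higher in this comparison after the least-squares correction for GC content and length (0.16, 0.13 and 0.12, adjusted p = 0.00484, 0.0156 and 0.0171), also with the replicate block added to it (adjusted p = 0.00944, 0.0374 and 0.0424). That correction moved the median of all genes in this comparison from 0.01 to 0.09. The robust correction called none of these genes.

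Genes around CCT were read in the same fit, from lists drawn up with the actin and tubulin clients and the co-chaperones of CCT. Of 13 client genes, low-intensity stress raised 1 and lowered 5. High-intensity stress raised 7 and lowered 1, and between the intensities 8 rose and 1 fell. These are 7.69% higher and 38.5% lower, 53.8% and 7.69%, and 61.5% and 7.69%, beside 13.2% and 14.8%, 15.1% and 20.0%, and 11.9% and 17.2% of all genes. The client and co-chaperone genes were read without a correction for gene length or GC content. The part of the length trend, given below for prefoldin, was not tested for them. Tuba1b, an alpha-tubulin, rose by 0.26 ± 0.05 and Tubb5, a beta-tubulin, by 0.27 ± 0.04 at 600 mOsm (adjusted p = 0.00106 and 0.000454). Actg1, cytoplasmic gamma-actin, was lower at both intensities (-0.35 ± 0.06 and -0.24 ± 0.06, adjusted p = 0.000857 and 0.0102). The neuronal-type beta-tubulin Tubb3 was the exception in direction, with 1.27, 1.68 and 1.06 CPM in iso-osmolar medium, 3.48, 3.01 and 3.31 at 500 mOsm and 1.72, 1.52 and 1.82 at 600 mOsm. Its change at 500 mOsm was 1.28 ± 0.18 (adjusted p = 0.000167), with no overlap between these groups. Among 8 tested co-chaperones of CCT and tubulin, 0 were higher and 1 was lower at 500 mOsm, and 1 was higher and 1 lower at 600 mOsm. Between the intensities 2 were higher and 1 was lower. These are 0% and 12.5%, 12.5% and 12.5%, and 25% and 12.5%, beside the percentages of all genes given for the clients. Tbcc, a tubulin cofactor, was lower at 500 mOsm by 0.73 on the log2 scale (SE 0.10, adjusted p = 7.98e-05) and higher at 600 mOsm than at 500 mOsm.

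Prefoldin had 2 called genes, both higher at 600 mOsm than in the other treatments. That is 40% of 5 tested, beside 15.1% of all genes against iso-osmolar medium and 11.9% against 500 mOsm. Pfdn5, an alpha-type subunit, had 54.4, 53.5 and 54.6 CPM in iso-osmolar medium, 55.1, 55.7 and 60.6 at 500 mOsm, and 67.1, 70.3 and 64.9 at 600 mOsm. The libraries of the 3 treatments did not overlap, and the level at 600 mOsm was 1.25 times that of iso-osmolar medium (0.32 ± 0.06, adjusted p = 0.000946) and 1.18 times that at 500 mOsm (0.24 ± 0.06, adjusted p = 0.00673). Pfdn1, a beta-type subunit, had 76.3, 74.3 and 73.1 CPM in iso-osmolar medium, 71.2, 75.6 and 74.8 at 500 mOsm and 83.9, 82.5 and 85.8 at 600 mOsm, all above the others. Its changes were 0.17 ± 0.05 (adjusted p = 0.0147) and 0.19 ± 0.05 (adjusted p = 0.0113).

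Both genes are short (1062 and 1077 bases, beside a median of 3020 over all genes tested), and short genes ran higher in the 600 mOsm libraries (median deviation 0.06 to 0.11 on the log2 scale) while long genes ran lower (-0.23 to -0.05). After a robust correction for GC content and length, added after the data had been seen, the change against iso-osmolar medium was 0.15 for Pfdn5 (adjusted p = 0.0782) and 0.06 for Pfdn1 (adjusted p = 0.311). The robust correction ended both calls against 500 mOsm too (adjusted p = 0.198 and 0.131). After the planned least-squares correction both stayed called, but with the replicate block added to it neither was called against iso-osmolar medium (adjusted p = 0.0561 for Pfdn5 and 0.0812 for Pfdn1). Without iso-osmolar replicate 3 the adjusted p of Pfdn1 was 0.0689, and without 600 mOsm replicate 3 it was 0.0525.

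Pfdn2, Pfdn4 and Pfdn6 passed in no comparison. Pfdn6 had the highest level of the family (160 FPKM over all libraries), with 126, 138 and 129 CPM in iso-osmolar cells, 132, 147 and 139 at 500 mOsm, and 149, 135 and 157 at 600 mOsm. Its level at 600 mOsm was called higher against iso-osmolar medium without the filter on low counts, without iso-osmolar replicate 2 and without 600 mOsm replicate 2. Pfdn2 had 89.4, 87.4 and 85.3 CPM in iso-osmolar medium, 93.0, 88.5 and 81.0 at 500 mOsm, and 90.1, 76.2 and 79.7 at 600 mOsm. Pfdn4 had the lowest level (15.4 FPKM), with 17.6, 16.6 and 15.1 CPM in iso-osmolar medium, 14.4, 14.9 and 15.7 at 500 mOsm, and 16.9, 16.2 and 16.9 at 600 mOsm. The treatments overlapped for all of them, except that every 600 mOsm library of Pfdn4 lay above its 500 mOsm ones. Vbp1, the prefoldin subunit outside the name rule, passed in no comparison. Among 7 genes of the prefoldin-like and R2TP lists, which serve assembly of large complexes, none was called at 500 mOsm. At 600 mOsm 1 was higher and 1 was lower against each of the other treatments, and 5 of 7 changes were positive. Each call is 14.3%, beside 15.1% higher and 20.0% lower of all genes against iso-osmolar medium, and 11.9% and 17.2% against 500 mOsm. The lower gene was Uri1 in both comparisons (-0.35 ± 0.09 and -0.43 ± 0.08, adjusted p = 0.00733 and 0.00213).

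**Figure D2:**
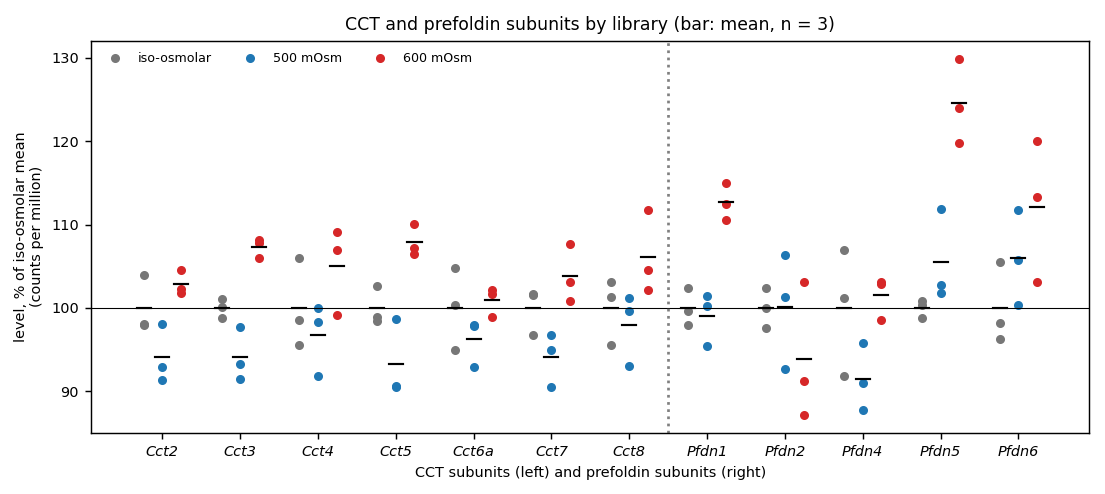
Level of each CCT and prefoldin subunit tested (x axis) in each library, in percent of the mean of the iso-osmolar libraries (y axis, from CPM), with short black bars for the mean of 3 libraries. CCT points span 90.5% to 101.2% at 500 mOsm, then 98.9% to 111.7% at 600 mOsm, and Pfdn5 at 600 mOsm reaches 129.9%.

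The mitochondrial chaperonin and its lid moved apart at 600 mOsm. Hspd1 (mm10, chr1:55077835-55088243, minus strand) had 494, 428 and 462 CPM in iso-osmolar medium, 471, 419 and 446 at 500 mOsm, and 363, 410 and 349 at 600 mOsm. All 3 libraries at 600 mOsm lay below the others, at 0.811 of the iso-osmolar level (-0.30 ± 0.07, adjusted p = 0.00511) and 0.839 of that at 500 mOsm (-0.25 ± 0.07, adjusted p = 0.0164). Hspe1 (chr1:55088132-55091307, plus strand) had 289, 283 and 269 CPM in iso-osmolar medium, 296, 304 and 289 at 500 mOsm, and 319, 301 and 307 at 600 mOsm. It was higher at 600 mOsm than in iso-osmolar cells (0.14 ± 0.05, adjusted p = 0.0323), with no overlap of these groups.

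The ratio of Hspe1 to Hspd1, each in FPKM, was 1.47, 1.66 and 1.47 in iso-osmolar medium, 1.58, 1.82 and 1.63 at 500 mOsm, and 2.21, 1.84 and 2.21 at 600 mOsm. Every library at 600 mOsm was above every other library. An exact two-sided permutation test gave p = 0.1 for 600 mOsm against either other treatment, the smallest value that 3 libraries against 3 allow, and p = 0.3 for 500 mOsm against iso-osmolar medium. The ratio and its test were made without a correction for the trends with GC content and gene length. The part of those trends in the ratio was not tested. Hspe1 is short (964 bases) and its call was the less firm one. It was lost in 11 of 23 alternatives, with an adjusted p of 0.548 after the robust correction for GC content and length, 0.0911 after the least-squares correction, 0.0644 and 0.151 without iso-osmolar replicates 2 and 3, and 0.130 and 0.0619 without 600 mOsm replicates 1 and 3. The Hspd1 call against iso-osmolar medium was lost only under a log2 fold change of at least 1, while against 500 mOsm its adjusted p was 0.0705 without 500 mOsm replicate 1, 0.0703 without 600 mOsm replicate 1 and 0.0725 without 600 mOsm replicate 3. Exons of Hspd1 and Hspe1 overlap by 112 bases on opposite strands and the strand setting of the counting was not given, so reads of this stretch cannot be assigned with certainty.

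Hspa9, the matrix Hsp70, had 617 ± 24.7 CPM in iso-osmolar cells, 609 ± 21.5 at 500 mOsm and 566 ± 29.2 at 600 mOsm (SD, n = 3). Its change at 600 mOsm was -0.12 ± 0.05 (adjusted p = 0.0743), and it passed without 600 mOsm replicate 2 (-0.16, adjusted p = 0.0322) and after the robust correction (-0.09, adjusted p = 0.0409). The 5 mitochondrial J-proteins (Dnaja3, Dnajc11, Dnajc15, Dnajc19 and Dnajc30), which serve the matrix Hsp70, protein import and cristae structure, gave no call in any comparison. In iso-osmolar medium, at 500 and at 600 mOsm, Dnaja3 stood at 78.4 ± 1.83, 81.7 ± 4.63 and 79.2 ± 2.64 CPM, and Dnajc11 at 153 ± 2.91, 155 ± 7.09 and 160.2 ± 4.33 CPM. Dnajc15 and Dnajc19 had means of 8.34 to 15.6 CPM, and Dnajc30 means of 3.18, 2.31 and 2.31 CPM. Dnajc11 was called higher at 600 mOsm, against both other treatments, after the least-squares correction with and without the block and after the robust one. Dnajc30 was called lower at 500 mOsm in 4 of 23 alternatives (the least-squares correction with and without the block, no filter on low counts, and without 500 mOsm replicate 1) and lower at 600 mOsm after either correction. No call was made either for 6 mitochondrial matrix partners at 600 mOsm against iso-osmolar medium, beside 15.1% higher and 20.0% lower of all genes. At 500 mOsm 1 of them was higher (Timm44, the import motor anchor, 0.17), and 1 was higher at 600 mOsm than at 500 mOsm. Each is 16.7% of the partners, beside 13.2% and 11.9% of all genes.

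**Figure D3:**
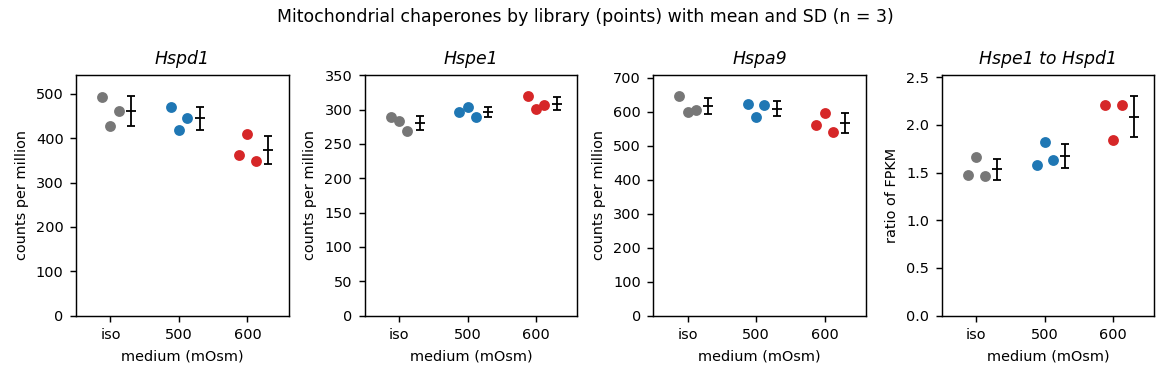
CPM of Hspd1, Hspe1 and Hspa9 and the ratio of Hspe1 to Hspd1 in FPKM (y axes) by treatment (x axis), each point 1 library, with the mean and SD of 3 libraries beside them. Hspd1 is lowest at 600 mOsm, and the ratio at 600 mOsm, 1.84 to 2.21, lies above the 1.47 to 1.66 of iso-osmolar medium.

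Hsp90ab1 (chr17:45567775-45573271), the most abundant transcript of the list, held 5997, 5631 and 5661 CPM in iso-osmolar medium, 5150, 5268 and 5650 at 500 mOsm, and 5773, 5741 and 5667 at 600 mOsm. The libraries of iso-osmolar and 500 mOsm cells overlapped, and no comparison passed (-0.11 ± 0.05, -0.01 ± 0.05 and 0.10 ± 0.05, adjusted p = 0.111, 0.899 and 0.138). The 95% interval for 600 mOsm against iso-osmolar medium was -0.11 to 0.09. Without 500 mOsm replicate 3 the lower level at 500 mOsm passed (-0.14, adjusted p = 0.0306), as did the rise from 500 to 600 mOsm (0.14, adjusted p = 0.0410). The lower level at 500 mOsm also passed after the least-squares correction for GC content and length (-0.20, adjusted p = 0.000601), with the block added to it (-0.20, adjusted p = 0.00340) and after the robust correction (-0.10, adjusted p = 0.0460). The rise from 500 to 600 mOsm passed after the least-squares correction (0.20, adjusted p = 0.000637) and with the block added to it (0.20, adjusted p = 0.00359). Among 15 genes of the Hsp90 and co-chaperone list, none was called at 500 mOsm and 1 was higher at 600 mOsm (Fkbp4, an immunophilin, 0.17). The latter is 6.67% beside 15.1% of all genes. Between the intensities 2 were higher and 1 was lower, 13.3% and 6.67% beside 11.9% and 17.2% of all genes.

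The exchange factors differed from each other in level more than in response. Hspa4 stood at 92.8 FPKM over all libraries and Hspa4l at 3.46. Hspa4 had 466, 419.5 and 431 CPM in iso-osmolar medium, 461, 399.9 and 440.1 at 500 mOsm, and 394, 447 and 399 at 600 mOsm. It passed in no comparison, with changes of -0.02 ± 0.07, -0.09 ± 0.07 and -0.07 ± 0.07. Hspa4l, known as Osp94 from its response to osmotic stress in kidney cells, had 25.7, 24.2 and 33.8 CPM in iso-osmolar medium, 45.4, 33.0 and 36.1 at 500 mOsm, and 28.2, 37.5 and 31.3 at 600 mOsm. It was 1.37 times as high at 500 mOsm as in iso-osmolar medium (0.45 ± 0.15, adjusted p = 0.0357), although the highest iso-osmolar library lay above the lowest at 500 mOsm. The call was lost without iso-osmolar replicate 1 (0.113), iso-osmolar replicate 2 (0.133), 500 mOsm replicate 1 (0.154) or 500 mOsm replicate 3 (0.0533, adjusted p each). At 600 mOsm its change was 0.21 ± 0.15 (adjusted p = 0.292). This transcript is long, and after the corrections for GC content and length it was higher at 600 mOsm as well (0.41 by least squares and 0.43 by the robust fit, adjusted p = 0.000260 and 0.000346). Hsph1, the heat-inducible relative of both, was lower at 600 mOsm (-0.31 ± 0.06, adjusted p = 0.00114). It is 1 of 12 listed Hsp70 exchange factors outside the name rule. Of these 1 was higher and 2 were lower at 500 mOsm, 1 and 4 at 600 mOsm, and 1 and 2 between the intensities. As shares these are 8.33% and 16.7%, 8.33% and 33.3%, and 8.33% and 16.7%. Of all genes 13.2% and 14.8%, 15.1% and 20.0%, and 11.9% and 17.2% were called.

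Hspa14 and its partner at the ribosome, Dnajc2, passed in no comparison. Hspa14 stayed within 81.1 to 89.3 CPM over the 9 libraries. After the robust correction it was higher at 600 mOsm than in iso-osmolar cells (0.13, adjusted p = 0.0229). The least-squares correction, with and without the block, also called it higher there. Against 500 mOsm it was called higher under each of these corrections. Dnajc2 varied more within treatments than between them, with 29.4, 36.5 and 49.3 CPM in iso-osmolar medium, 48.0, 34.7 and 33.3 at 500 mOsm and 38.1, 49.1 and 38.7 at 600 mOsm, a coefficient of variation of 26.3% in iso-osmolar medium beside a median of 5.46% over the 55 genes.

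Of 36 J-proteins tested, low-intensity stress raised 3 and lowered 3. High-intensity stress raised 2 and lowered 8, and between the intensities 3 rose and 10 fell. These are 8.33% higher and 8.33% lower at 500 mOsm, beside 13.2% and 14.8% of all genes. At 600 mOsm they are 5.56% and 22.2%, beside 15.1% and 20.0%, so that the lower calls were near the share of all genes. Between the intensities they are 8.33% and 27.8%, beside 11.9% and 17.2%. Their median log2 fold changes were 0.02, -0.04 and -0.09, beside 0.01, 0.01 and 0.01 over all genes. In counts they took 0.205% ± 0.00790 of all counts in iso-osmolar cells, 0.204% ± 0.00613 at 500 mOsm and 0.182% ± 0.00866 at 600 mOsm (SD, n = 3). Dnaja2, the most abundant of them, had means of 470, 424 and 361 CPM in these treatments, so this gene weighs heavily in that share. At 600 mOsm against iso-osmolar medium, 26 of the 36 were not called.

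Among 7 cytosolic and nuclear J-proteins of classes A and B, 1 rose and 1 fell at 500 mOsm, while 1 rose and 3 fell at 600 mOsm, and 1 rose and 4 fell between the intensities. As shares these are 14.3% higher and 14.3% lower, then 14.3% and 42.9%, then 14.3% and 57.1%. Of all genes 13.2% and 14.8%, then 15.1% and 20.0%, then 11.9% and 17.2% were called. Dnajb2 (HSJ1), which binds ubiquitylated clients, rose at both intensities. It had 29.0, 30.8 and 29.0 CPM in iso-osmolar medium, 40.9, 44.0 and 37.5 at 500 mOsm, and 39.2, 33.5 and 37.8 at 600 mOsm. No stressed library overlapped the iso-osmolar ones, and the changes were 0.46 ± 0.08 (1.38-fold, adjusted p = 0.000669) and 0.32 ± 0.08 (1.25-fold, adjusted p = 0.00859). The intensities did not pass against each other.

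Dnajb5, a class B relative of Dnajb1 and Dnajb4, fell at 500 mOsm. Its CPM were 9.47, 10.5 and 8.42 in iso-osmolar medium, 4.79, 4.41 and 5.30 at 500 mOsm, and 7.61, 7.25 and 8.43 at 600 mOsm. The 500 mOsm libraries lay below all others, at 0.511 of the iso-osmolar level (-0.97 ± 0.12, adjusted p = 5.35e-05), the largest called change of the list. The level at 600 mOsm was 1.61 times that at 500 mOsm (0.68 ± 0.12, adjusted p = 0.00107), and overlapped the iso-osmolar libraries.

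Dnaja2, Dnaja4 and Dnajb6 fell at 600 mOsm. Dnaja2, the most abundant J-protein by length-scaled level (147 FPKM), had 505, 457 and 447 CPM in iso-osmolar medium, 431, 409 and 431 at 500 mOsm, and 354, 380 and 348 at 600 mOsm. The libraries fell into separate ranges in the order of the stress intensity, with a called change at 600 mOsm (-0.38 ± 0.05, adjusted p = 0.000197) and between intensities (-0.23 ± 0.05, adjusted p = 0.00684).

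Dnajb6, known for holding back aggregation of polyglutamine proteins, had 107, 104 and 97.9 CPM in iso-osmolar medium, 109, 106 and 109 at 500 mOsm, and 76.0, 84.9 and 79.6 at 600 mOsm. It was lower at 600 mOsm than in iso-osmolar cells (-0.36 ± 0.05, adjusted p = 0.000286) and than at 500 mOsm (-0.43 ± 0.05, adjusted p = 8.53e-05), without overlap. Dnaja4 had 23.4, 22.5 and 23.3 CPM in iso-osmolar medium, 23.1, 23.6 and 21.8 at 500 mOsm and 17.5, 18.1 and 15.8 at 600 mOsm, a change of -0.43 ± 0.08 (adjusted p = 0.000924). These 3 genes kept their calls under every alternative except a log2 fold change of at least 1. Dnaja4 shares 1581 exonic bases with Wdr61 on the opposite strand, and Dnajb6 has 5 pseudogene copies of at least 95% identity, whose counts reached 1.76% of its own.

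Dnaja1 overlapped between all treatments. It was lower at 600 mOsm than at 500 mOsm (-0.23 ± 0.08, adjusted p = 0.0409), a call lost in 11 of 23 alternatives. Those that left out a library were iso-osmolar replicate 1 (0.0514), 500 mOsm replicates 1 and 3 (0.177 and 0.0547) and 600 mOsm replicates 1 and 3 (0.164 and 0.118, adjusted p each). Dnajb4, at 6.68 ± 0.710 CPM in iso-osmolar medium and 8.30 ± 1.118 at 500 mOsm, passed in no comparison, nor did Dnajc7, an adaptor between Hsp70 and Hsp90. Dnaja1 and Dnajb4 were called higher at 500 mOsm against iso-osmolar medium after the least-squares correction for GC content and length, after the robust one and without 500 mOsm replicate 2, and Dnaja1 also after the least-squares correction with the block.

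Both tested J-proteins of membrane traffic fell at 600 mOsm, beside 20.0% of all genes lower against iso-osmolar medium and 17.2% against 500 mOsm. Dnajc13 (RME-8), which works in endosomal sorting, had 39.7, 39.7 and 46.9 CPM in iso-osmolar medium, 53.5, 37.1 and 41.2 at 500 mOsm, and 24.8, 30.8 and 20.1 at 600 mOsm. The 600 mOsm libraries lay below all others, at 0.598 of the iso-osmolar level (-0.74 ± 0.15, adjusted p = 0.00265) and 0.574 of that at 500 mOsm (-0.80 ± 0.15, adjusted p = 0.00179). Dnajc5, the cysteine string protein of exocytosis, had 147, 132 and 141 CPM in iso-osmolar medium, 146, 147 and 149 at 500 mOsm, and 122, 122 and 115 at 600 mOsm. Its changes were -0.22 ± 0.05 (adjusted p = 0.00532) and -0.29 ± 0.05 (adjusted p = 0.000902).

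Both transcripts are long (8012 and 6578 bases), and long genes ran lower in the 600 mOsm libraries, as given above. The Dnajc13 calls stood after both corrections for GC content and length. The Dnajc5 calls did not: against iso-osmolar medium its change was -0.01 (adjusted p = 0.866) after the robust correction and turned to 0.0034 under the least-squares one, so its direction at 600 mOsm changed with the correction.

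In the endoplasmic reticulum, the lumenal and membrane J-proteins that serve Hspa5 (BiP) or face the cytosol gave 1 higher call at 500 mOsm and 1 lower at 600 mOsm among 6 genes, and 2 lower between the intensities. These are 16.7% beside 13.2% of all genes, 16.7% beside 20.0%, and 33.3% beside 17.2%. Dnajb14, a membrane J-protein with its J domain in the cytosol, had 13.2, 11.3 and 12.9 CPM in iso-osmolar medium, 16.4, 16.0 and 17.2 at 500 mOsm, and 11.3, 13.2 and 11.9 at 600 mOsm. All 500 mOsm libraries were above all others, with a change of 0.41 ± 0.09 against iso-osmolar medium (1.33-fold, adjusted p = 0.00516) and of -0.45 ± 0.09 from 500 to 600 mOsm (adjusted p = 0.00302). The latter was -0.21 after the least-squares correction for GC content and length (adjusted p = 0.101) and -0.23 after the robust one (adjusted p = 0.0802).

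Dnajb11, the abundant lumenal partner of BiP, had 142 ± 2.20 CPM in iso-osmolar cells, 149 ± 1.88 at 500 mOsm and 131 ± 3.15 at 600 mOsm, and passed only between the intensities (-0.18 ± 0.04, adjusted p = 0.00630). In 4 of 23 alternatives, the robust correction among them, it was lower at 600 mOsm than in iso-osmolar cells as well. Dnajc1, a membrane J-protein that binds ribosomes, was lower at 600 mOsm than in iso-osmolar cells (-0.28 ± 0.09, adjusted p = 0.0277). That call was lost in 11 of 23 alternatives, among them the omission of any iso-osmolar library (adjusted p = 0.0838, 0.0542 and 0.0526 without replicates 1, 2 and 3) or of 600 mOsm replicates 1 or 3 (0.106 and 0.0535). Dnajb12, Dnajc3 and Dnajc10 passed in no comparison, with 86.3 ± 3.65, 39.1 ± 3.92 and 57.8 ± 5.34 CPM in iso-osmolar cells, 81.5 ± 4.64, 37.8 ± 2.82 and 58.3 ± 2.88 at 500 mOsm, and 85.2 ± 1.35, 32.7 ± 3.46 and 55.9 ± 3.87 at 600 mOsm. Dnajc3 was called lower at 600 mOsm against iso-osmolar medium in 5 of 23 alternatives, DESeq2 among them, and Dnajb12 lower at 500 mOsm after the least-squares correction with and without the block. For reference, Dnajb9, an ER J-protein left out by the name rule, had 8.88, 7.45 and 8.22 CPM in iso-osmolar medium, 12.5, 9.76 and 9.98 at 500 mOsm and 4.64, 5.82 and 4.99 at 600 mOsm, and Dnajb1, the heat-inducible class B member also left out, passed in no comparison.

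**Figure D4:**
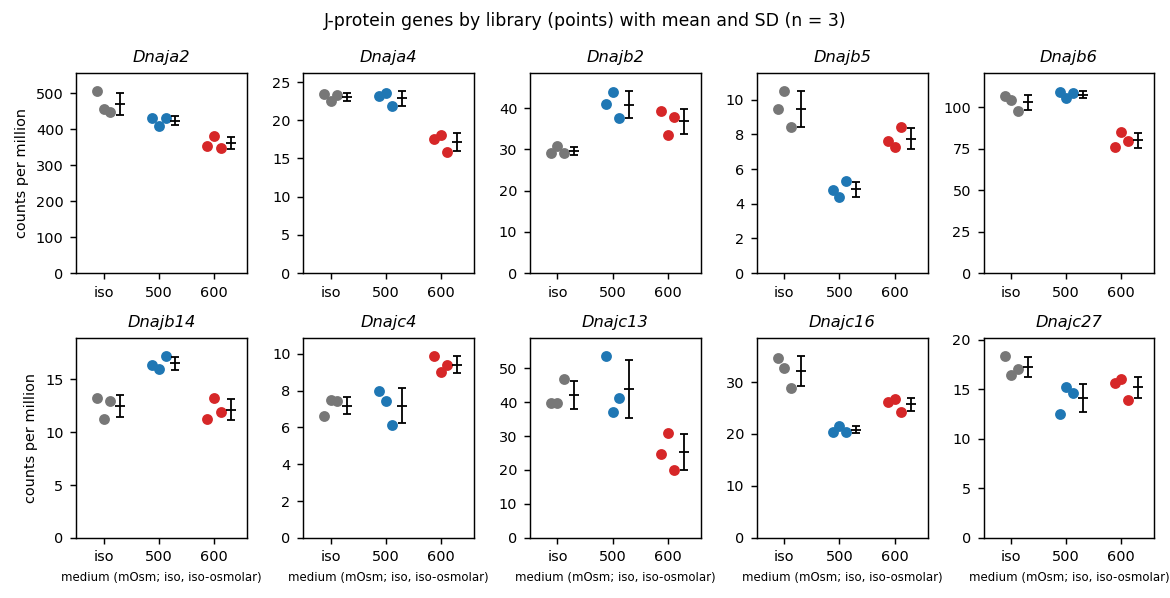
CPM (y axes, from 0) of 10 J-protein genes by treatment (x axes), each point 1 library, with the mean and SD of 3 libraries beside them. Dnajb2 is higher in all stressed libraries, Dnajb5 and Dnajc16 are lowest at 500 mOsm, Dnajb14 is highest at 500 mOsm, and Dnaja2, Dnaja4, Dnajb6 and Dnajc13 are lowest at 600 mOsm.

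Dnajc16, a membrane J-protein with a thioredoxin-like domain, fell at both intensities and further at the lower one. It had 34.6, 32.6 and 28.9 CPM in iso-osmolar medium, 20.4, 21.6 and 20.4 at 500 mOsm, and 26.2, 26.7 and 24.2 at 600 mOsm. The 3 treatments did not overlap. The change was -0.62 ± 0.08 at 500 mOsm (0.649 of the iso-osmolar level, adjusted p = 6.80e-05) and -0.32 ± 0.08 at 600 mOsm (adjusted p = 0.00784), and the level at 600 mOsm was above that at 500 mOsm (0.30 ± 0.08, adjusted p = 0.0132). After the GC and length corrections the value at 600 mOsm was -0.17 and -0.18 (adjusted p = 0.0975 and 0.0833 for least squares and robust).

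Dnajc4, a small class C member (1074 bases), rose at 600 mOsm. Its CPM were 6.64, 7.49 and 7.44 in iso-osmolar medium, 7.99, 7.42 and 6.14 at 500 mOsm, and 9.87, 8.99 and 9.39 at 600 mOsm, the last above all others. The changes were 0.39 ± 0.11 against both treatments (adjusted p = 0.0196 and 0.0206). Against iso-osmolar medium the call was lost without iso-osmolar replicate 1 (0.0747), without 600 mOsm replicate 1 (0.0701) and after either correction for GC content and length (0.112 and 0.142). Against 500 mOsm it was lost without 500 mOsm replicate 3 (0.0771), without 600 mOsm replicates 1 or 3 (0.0734 and 0.0513) and after the robust correction (0.0622, adjusted p each).

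Dnajc14 fell at 600 mOsm against both treatments (-0.27 ± 0.05 and -0.26 ± 0.05, adjusted p = 0.00251 and 0.00359), from 54.2 ± 0.676 and 53.8 ± 2.24 to 45.1 ± 1.23 CPM. After the least-squares correction for GC content and length it no longer passed (adjusted p = 0.107 and 0.109). After the robust one it stayed lower against both treatments, and each call was lost in 3 of 23 alternatives. It shares 1114 exonic bases with Ormdl2 on the opposite strand. Dnajc22, with 0.33 as its average log2 CPM, was higher at 500 mOsm (1.35, 1.70 and 1.75 CPM) than in iso-osmolar medium (0.77, 0.98 and 0.82), by 0.90 ± 0.23 (adjusted p = 0.00940). Its lower level at 600 mOsm than at 500 mOsm (-0.65 ± 0.22, adjusted p = 0.0419) was lost in 14 of 23 alternatives, DESeq2 among them (0.151), and without iso-osmolar replicates 1, 2 or 3 (0.0520, 0.0508 and 0.0557), 500 mOsm replicates 2 or 3 (0.112 and 0.117) or 600 mOsm replicates 1 or 2 (0.0936 and 0.135).

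Dnajc27, in which a J domain follows a Rab-like GTPase, had 18.3, 16.4 and 17.0 CPM in iso-osmolar medium, 12.5, 15.2 and 14.7 at 500 mOsm and 15.6, 16.0 and 14.0 at 600 mOsm. The lower level at 500 mOsm (-0.29 ± 0.10, adjusted p = 0.0414) was lost in 14 of 23 alternatives. The adjusted p was 0.131, 0.0508 and 0.0749 without iso-osmolar replicates 1, 2 and 3, 0.147 and 0.0597 without 500 mOsm replicates 1 and 3, and 0.0557 without 600 mOsm replicate 1. The other J-proteins, Dnajc12, Dnajc18, Dnajc25 and Dnajc28, passed in no comparison. Dnajc25 had 15.9 ± 2.09 CPM in iso-osmolar cells, 13.2 ± 2.20 at 500 mOsm and 12.4 ± 1.57 at 600 mOsm, and was called lower at 600 mOsm than in iso-osmolar cells in 5 of 23 alternatives. Dnajc18 had means of 18.3 to 19.1 CPM and was called higher at 600 mOsm, against both other treatments, after the least-squares correction. Dnajc12 and Dnajc28 stayed under 1 CPM on average in each treatment.

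The 6 J-proteins of RNA and chromatin (Dnajc2, Dnajc8, Dnajc9, Dnajc17, Dnajc21 and Dnajc24), which take part in splicing, histone supply, ribosome assembly and diphthamide synthesis, gave no call in any comparison. Their median log2 fold changes were -0.02 at 500 mOsm, 0.02 at 600 mOsm and 0.005 between intensities. By length-scaled level Dnajc8 (56.9 FPKM) and Dnajc9 (54.5 FPKM) were the most abundant of them and Dnajc17 (5.50 FPKM) the least. Gak, the auxilin of clathrin uncoating and a J-protein outside the name rule, was higher at 500 mOsm by 0.15 and was not called at 600 mOsm against iso-osmolar medium.

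The Hsp70 proteins that J-proteins serve included the inducible ones. Of 6 Hsp70 partners, 3 rose under low-intensity stress, and under high-intensity stress 3 rose and 1 fell. Between the intensities 0 were higher and 3 were lower. These are 50% higher and 0% lower, 50% and 16.7%, and 0% and 50%. Of all genes 13.2% and 14.8%, 15.1% and 20.0%, and 11.9% and 17.2% were called. Hspa1a and Hspa1b, the inducible cytosolic Hsp70 genes and near-identical copies whose reads may be split between them, rose by 4.83 ± 0.37 and 4.76 ± 0.08 at 500 mOsm (adjusted p = 7.44e-07 and 1.92e-12). The constitutive Hspa8 held 2203, 2086 and 2074 CPM in iso-osmolar medium, 1954, 1929 and 2120 at 500 mOsm and 2030, 2023 and 2056 at 600 mOsm, and was not called. Hspa5 was lower at 600 mOsm (-0.24 ± 0.07, adjusted p = 0.0159). Over all 80 tested genes of these pathway lists, low-intensity stress raised 8 and lowered 8, and high-intensity stress raised 15 and lowered 9. Between the intensities 16 rose and 11 fell. These are 10% and 10%, 18.8% and 11.2%, and 20% and 13.8%, beside the percentages of all genes given in this paragraph.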

How the data were processed

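RNA was extracted from MEFs with Trizol, enriched on poly-T beads and sequenced as paired reads. The authors deposited 1 table of 35275 genes with the read count of each gene in each of 9 libraries, aligned to mm10. The submitters' processing notes name STAR and CASAVA 1.8. The counting tool, strand setting and annotation release are not given in the sources used here. The authors also deposited FPKM values (the count divided by the listed gene length and the library total) and columns with their own fold changes and p-values, which were not used.

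Counts were analysed with edgeR 4.0.16 in R 4.3.3 (filterByExpr, TMM factors, glmQLFit and glmQLFTest, all 9 libraries in 1 fit with treatment as the only term). Benjamini-Hochberg adjustment ran over the 13082 genes tested, with a threshold of 0.05. Totals of 21716042 to 26740832 counts per library and a common biological coefficient of variation of 0.0756 set the precision, and the median SE for 600 mOsm against 500 mOsm was 0.10. Counts of 0 and the floor of 3 counts cover counting error only. FPKM was used for levels between genes and for ratios, the latter with exact permutation tests. The script was tested on simulated data.

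The genes and lists were chosen with earlier results of these data known. Genes chosen for full values were the tested CCT and prefoldin subunits, the 7 genes listed by symbol and, among J-proteins of at least 1 average log2 CPM, the 4 with the largest called change per comparison and direction. Other called members are named because each passed the test, and genes of the pathway lists were named after their values were seen. Alternatives were RLE factors, library size alone, no filter, at least 10 counts in every library, DESeq2 1.42.0, a fit of the 2 treatments alone, a block for replicate number, offsets from a spline fit (5 degrees of freedom) on GC content and gene length by least squares, both together, limma 3.58.1 on log2(FPKM + 1) and on log2(FPKM + 0.1), leaving out each library, an adjusted p under 0.01 and a log2 fold change of 1 or more in size. A robust spline fit (MASS 7.3.60.0.1), centred on the median of each library, was added after the data had been seen, because the least-squares offsets moved the median of all genes. All alternatives were read for the chaperone genes of the name rule only. Genes of the pathway lists rest on the main fit. GC content came from the longest GENCODE vM21 transcript of each gene. Pseudogene copies were sought with BLAST 2.17.0 (at least 300 bases and 95% identity). Protein sequences were not analysed here.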

Additional observations from a re-analysis of the deposited data

Results flagged for a closer look

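The change against iso-osmolar medium differed between the intensities, by the test of 600 mOsm against 500 mOsm, for 20 of the 55 genes (edgeR, adjusted p under 0.05). On the log2 scale 11 were lower at the higher intensity. These were Dnajc13 with -0.80, Dnajc22 with -0.65, Dnajb14 with -0.45, Dnajb6 with -0.43, Dnaja4 with -0.42, Dnajc5 with -0.29, Dnajc14 with -0.26, Hspd1 with -0.25, Dnaja2 with -0.23, Dnaja1 with -0.23 and Dnajb11 with -0.18. The other 9 were higher. These were Cct2 with 0.13, Cct7 with 0.14, Pfdn1 with 0.19, Cct3 with 0.19, Cct5 with 0.21, Pfdn5 with 0.24, Dnajc16 with 0.30, Dnajc4 with 0.39 and Dnajb5 with 0.68. Treatments of 3 libraries are too small for a test of single libraries that stand apart.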

How the results depend on the processing

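Counts of called genes changed by over 1.5 times under several alternatives. Without a filter on low counts 5 genes were lower at 500 mOsm against iso-osmolar medium. After the least-squares correction for GC content and length 500 mOsm gave 8 lower and 600 mOsm gave 10 higher genes against iso-osmolar medium, and between intensities 18 rose and 7 fell. With the replicate block added to it these were 8 lower at 500 mOsm, 5 lower at 600 mOsm against iso-osmolar medium, and 17 higher and 6 lower between intensities. That correction moved the median of all genes from 0.01 to 0.09 between intensities and from 0.01 to -0.06 at 500 mOsm. The robust correction, added after those counts had been seen, left these medians at -0.01 and 0.01 and gave 5 lower at 500 mOsm, 8 higher and 13 lower between intensities, so the split between higher and lower calls changed with the correction used. Asking for a log2 fold change of 1 or more in size left 0 in all 6 counts, where edgeR at an adjusted p under 0.05 alone gave 3 to 11. At an adjusted p under 0.01, 2 were higher at 600 mOsm against iso-osmolar medium and 4 against 500 mOsm. Leaving out 1 library gave 2 to 5 lower at 500 mOsm (5 without 500 mOsm replicate 3) and 3 to 7 higher at 600 mOsm against iso-osmolar medium (3 without iso-osmolar replicate 3, or 600 mOsm replicates 1 or 3).

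Of 943 alternative values of called changes, 766 kept their direction and call, 175 lost the call and 2 reversed. The reversed ones were Dnajc5 at 600 mOsm against iso-osmolar medium, 0.0034 after the least-squares correction, with and without the block. Of 782 values of changes that had not passed, 39 passed and 22 reversed, all close to 0. At 600 mOsm against iso-osmolar medium Cct6a was -0.0068 by library size alone, -0.0061 by limma with either added constant, -0.0237 after the robust correction and -0.0245 to 0.0467 with 1 library left out. Hsp90ab1 was 0.0011 and 0.0014 after the least-squares correction without and with the block, and -0.026 to 0.0201 with 1 library left out. Hspa4 was 0.071 and 0.0715 after that correction without and with the block and 0.0367 after the robust one, and Hspa14 was -0.0002 to 0.0428 with 1 library left out. At 500 mOsm Hspa4 was 0.0146 and Hspa9 0.0043 after the robust correction, with ranges of -0.063 to 0.0269 and -0.0403 to 0.0122 when 1 library was left out. Between intensities Hspa4 was 0.0733 and 0.0738 after the least-squares correction without and with the block and 0.0222 after the robust one, and Hspe1 was -0.0303 after the robust one. Changes of J-proteins and prefoldin subunits that had not passed are not among these values.

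Libraries of the same replicate number did not deviate together (mean r = -0.0847 over 9 pairs, from -0.241 to 0.156, with 1 over 0.1). For different numbers the mean r was 0.0425 over 18 pairs, from -0.13 to 0.233, with 6 over 0.1. Deviations from means of 3 libraries tie both sets of correlations to each other, so the check cannot show whether the numbers pair the libraries. With a block for replicate number, edgeR called 3 genes higher and 2 lower at 500 mOsm, 4 and 8 at 600 mOsm, and 7 and 9 at 600 mOsm against 500 mOsm. No pair of libraries of 1 treatment agreed within sampling noise (chi-square per degree of freedom of 5.04 to 15.1). Dnajc12, Dnajc22 and Dnajc28 had mean levels under 2 CPM in each treatment. Overlapping genes could not be separated by strand.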
